A study of Mus musculus with 39 samples.

Results

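The genes described here encode the giant filament proteins of the sarcomere, the proteins of its M-band and the myosin-binding proteins of its thick filament. They were taken by name: Ttn (titin), Neb (nebulin), Obsl1 (obscurin-like 1), Myom1, Myom2 and Myom3 (myomesins), Mybpc1 and Mybpc2 (the slow and fast skeletal myosin-binding proteins C) and Mybph (myosin-binding protein H). They are 9 of the 29980 genes in the count table. All 9 passed the filter on low counts and were among the 13780 genes tested.

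The RNA came from C2C12 cells, an established line of mouse skeletal myoblasts that fuse into multinucleate myotubes when serum is withdrawn. A wild-type line (WT) was compared with a line (FlncKO, here KO) in which CRISPR/Cas9 had been aimed at exon 1 of Flnc, the gene of the actin crosslinker filamin C. Day 0 is growing cells in medium with 10% fetal bovine serum, and days 1, 2, 4 and 6 are days in medium with 2% horse serum, in both lines. Each line carries a single name in the labels, so any difference between the lines other than Flnc cannot be told apart from the knockout. Each group of genotype and day holds 4 libraries (replicates 1, 3, 4 and 5), except KO at day 2 with 3 (replicates 1, 3 and 5), 39 in all. Nothing in the labels says that replicates were separate cultures, so p-values measure only the spread between these libraries, which may be technical.

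Libraries held 6838281 to 28902526 counts. Flnc itself averaged 648 ± 187 CPM (read counts scaled to the library total; SD, n = 4) with WT and 29.4 ± 17.0 with KO in growing cells, and 1595 ± 258 against 121 ± 20.5 by day 6 (n = 4 each). KO day 1 replicate 3, KO day 4 replicate 3 and WT day 0 replicate 4 had the lowest levels of long transcripts (median deviations of -1.18, -0.67 and -0.64, log2, from their group means), and WT day 4 replicate 3 came next (-0.58). Leaving out the first 3 was a choice made after seeing the data. Members called in KO against WT then numbered 3, 4, 5, 5 and 5 from day 0 to day 6. With these libraries the counts were 3, 4, 5, 6 and 5. The call lost was that of Ttn at day 4 (-2.09, adjusted p = 0.0698), where WT replicate 3 was kept. Of all genes, 14.7%, 10.3%, 13.6%, 16.8% and 17.7% were called lower without these libraries. With them the shares were 9.09%, 9.93%, 10.3%, 14.2% and 14.4%. Of 10 skeletal myogenic markers, 8 had reads in all 39 libraries; Myf6 was at 0 in 7 libraries and reached 1.68 CPM at most. Among markers of other cell types, 3 of 7 for adipocytes (Cidec, Cfd, Lep), 1 of 7 for osteoblasts (Ibsp) and 2 of 7 for fibroblasts (Thy1, Tcf21) were at 0 in every library, while Pparg (adipocyte, median 20.7 CPM), Runx2 (osteoblast, 23.9 CPM) and the fibroblast genes Pdgfra, Dcn, Ly6a and Col1a1 had reads in all 39. At day 6 the summed level of the 10 myogenic markers ran from 8139 to 10030 CPM in WT and from 4685 to 5676 CPM in KO (3 lower and 1 higher of 10 tested). The 7 fibroblast markers summed to 247 to 1301 CPM in WT and 159 to 225 CPM in KO, and the 7 smooth muscle markers to 5527 to 6856 and 7238 to 9827 CPM. Most of the smooth muscle sum came from Acta2 (median 4146 CPM) and Des (2595 CPM), and Des is also a myogenic marker. Myh11 was at 0 in 20 of 39 libraries and reached 0.547 CPM at most. Of 6 smooth muscle markers tested at day 6, 1 was higher in KO (14.5% of all genes) and 0 lower. The 7 adipocyte markers summed to 9.82 to 19.6 CPM in WT and 6.43 to 12.3 CPM in KO, and the 7 osteoblast markers to 7.21 to 8.00 and 10.1 to 15.8 CPM. Their part in the differences below was not tested.

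Titin spans the sarcomere from Z-disc to M-band and serves as a molecular spring and as a ruler for the thick filament, while nebulin runs along the thin filament and sets its length. Myomesins crosslink myosin filaments and titin at the M-band, and obscurin-like 1 is a large immunoglobulin-domain protein that binds titin and myomesin there. Myosin-binding proteins C and H sit in stripes along the thick filament and modulate its contacts with actin. Most of their genes are switched on as myoblasts differentiate. Obsl1 already averaged 51.9 CPM in WT and 37.9 CPM in KO growing cells. It was not alone in this: Ttn averaged 87.1 and 42.1 CPM there, Myom2 40.0 and 10.1 CPM, and Mybph 35.7 and 5.14 CPM.

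Promoters of 5 members are shown. Of these, 3 were called lower in KO on at least 1 day in the fit without a block (Ttn, Myom3, Mybph). Myom1 and Mybpc1 were not called on any day in that fit, and no other uncalled member has an entry. Obsl1 and Mybpc2, also called lower and with an entry, are described below and not shown. Each promoter shown runs from 250 bases before to 50 bases after the RefSeq start on GRCm38.p6, written 5′ to 3′ on the gene's strand. They lie at chr2:76982498-76982797 (minus strand) for Ttn, chr4:135759465-135759764 (plus) for Myom3, chr1:134193198-134193497 (plus) for Mybph, chr17:71019307-71019606 (plus) for Myom1 and chr10:88605103-88605402 (minus) for Mybpc1. Capitals mark E-boxes (CANNTG, the motif bound by myogenic basic helix-loop-helix factors), MEF2 sites and CArG boxes (the motif of serum response factor).
Ttn: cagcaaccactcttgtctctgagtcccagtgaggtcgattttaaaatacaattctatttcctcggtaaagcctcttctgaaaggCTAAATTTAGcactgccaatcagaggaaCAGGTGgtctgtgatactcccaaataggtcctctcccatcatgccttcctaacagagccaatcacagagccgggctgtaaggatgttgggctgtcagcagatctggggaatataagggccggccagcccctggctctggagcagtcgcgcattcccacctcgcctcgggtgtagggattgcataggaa
Myom3: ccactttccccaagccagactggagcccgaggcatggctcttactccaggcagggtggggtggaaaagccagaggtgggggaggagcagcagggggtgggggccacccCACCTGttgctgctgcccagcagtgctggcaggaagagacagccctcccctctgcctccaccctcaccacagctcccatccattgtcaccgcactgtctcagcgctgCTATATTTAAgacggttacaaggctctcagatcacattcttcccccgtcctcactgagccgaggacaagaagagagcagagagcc
Mybph: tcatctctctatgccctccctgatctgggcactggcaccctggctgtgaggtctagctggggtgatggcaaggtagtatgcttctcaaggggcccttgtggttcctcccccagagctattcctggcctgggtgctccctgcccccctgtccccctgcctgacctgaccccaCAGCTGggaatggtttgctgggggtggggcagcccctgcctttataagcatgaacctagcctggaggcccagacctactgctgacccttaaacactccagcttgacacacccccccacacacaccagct
Myom1: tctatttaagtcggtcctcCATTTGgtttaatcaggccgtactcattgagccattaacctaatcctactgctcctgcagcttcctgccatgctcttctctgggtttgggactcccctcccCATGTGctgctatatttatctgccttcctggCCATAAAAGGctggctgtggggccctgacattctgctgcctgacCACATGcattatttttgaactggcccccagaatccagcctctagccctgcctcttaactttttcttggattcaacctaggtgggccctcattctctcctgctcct
Mybpc1: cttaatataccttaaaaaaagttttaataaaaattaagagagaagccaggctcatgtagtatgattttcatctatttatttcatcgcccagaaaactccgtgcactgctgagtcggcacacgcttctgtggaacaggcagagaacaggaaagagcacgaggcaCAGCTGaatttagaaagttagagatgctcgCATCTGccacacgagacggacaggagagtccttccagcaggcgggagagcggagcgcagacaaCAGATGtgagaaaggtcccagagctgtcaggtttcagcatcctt

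RefSeq starts matched 7 of the 9 members; Neb and Myom2 had no entry. Both strands were searched. Ttn holds a MEF2 site at -166 and an E-box at -138 from the start, and Myom3 holds a MEF2 site at -35 and an E-box at -142. In Mybph the single E-box, at -79, has the letters CAGCTG, which are a subset of CANNTG. Myom1 holds a CArG box at -99 and E-boxes at -231, -130 and -55, and Mybpc1 holds E-boxes at -87 (CAGCTG), -57 and 6. The CAGCTG form was present in 16.3% of all 32851 RefSeq promoters of this length, an E-box of any form in 72.31%, a MEF2 site in 3.19% and a CArG box in 1.63%. Among the 7 matched members, Ttn and Myom3 had a MEF2 match and Myom1 a CArG match in this window. Obsl1 held 4 E-boxes, 2 of them CAGCTG, and Mybpc2 held 2 E-boxes. The MCAT letters (CATTCC), not marked by capitals, were also searched. They were found in Ttn (at 11), Mybph (-73) and Mybpc2 (-62), and in 14.66% of all RefSeq promoters. These matches describe letters only. The RefSeq start of Myom1 lies inside the longer gene model that was counted (chr17:71002633-71126856), and counts per gene do not say which start was used.

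All 9 members were higher at day 6 than at day 0 in WT, and 8 of 9 in KO. Among all genes tested, 21.7% were called higher in WT and 20.5% in KO (edgeR's quasi-likelihood test, Benjamini-Hochberg adjusted p under 0.05). The median log2 change of the members was 6.14 in WT and 5.12 in KO, against -0.08 and -0.05 over all genes. Mybpc1 went from 0.24 ± 0.23 to 47.9 ± 22.2 CPM in WT (log2 7.59, SE 0.57, adjusted p = 1.27e-09) and from 0.32 ± 0.24 to 20.5 ± 2.60 CPM in KO (log2 5.92, SE 0.59, adjusted p = 8.21e-08; n = 4 each). Obsl1 was the member not called in KO: it went from 51.9 ± 20.2 to 164 ± 14.7 CPM in WT (log2 1.64, SE 0.32, adjusted p = 0.000163) and from 37.9 ± 19.2 to 47.5 ± 12.6 CPM in KO (log2 0.30, SE 0.43, adjusted p = 0.492). In bulk RNA, fewer differentiated cells and less RNA of these genes per cell cannot be told apart.

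**Figure D1:**
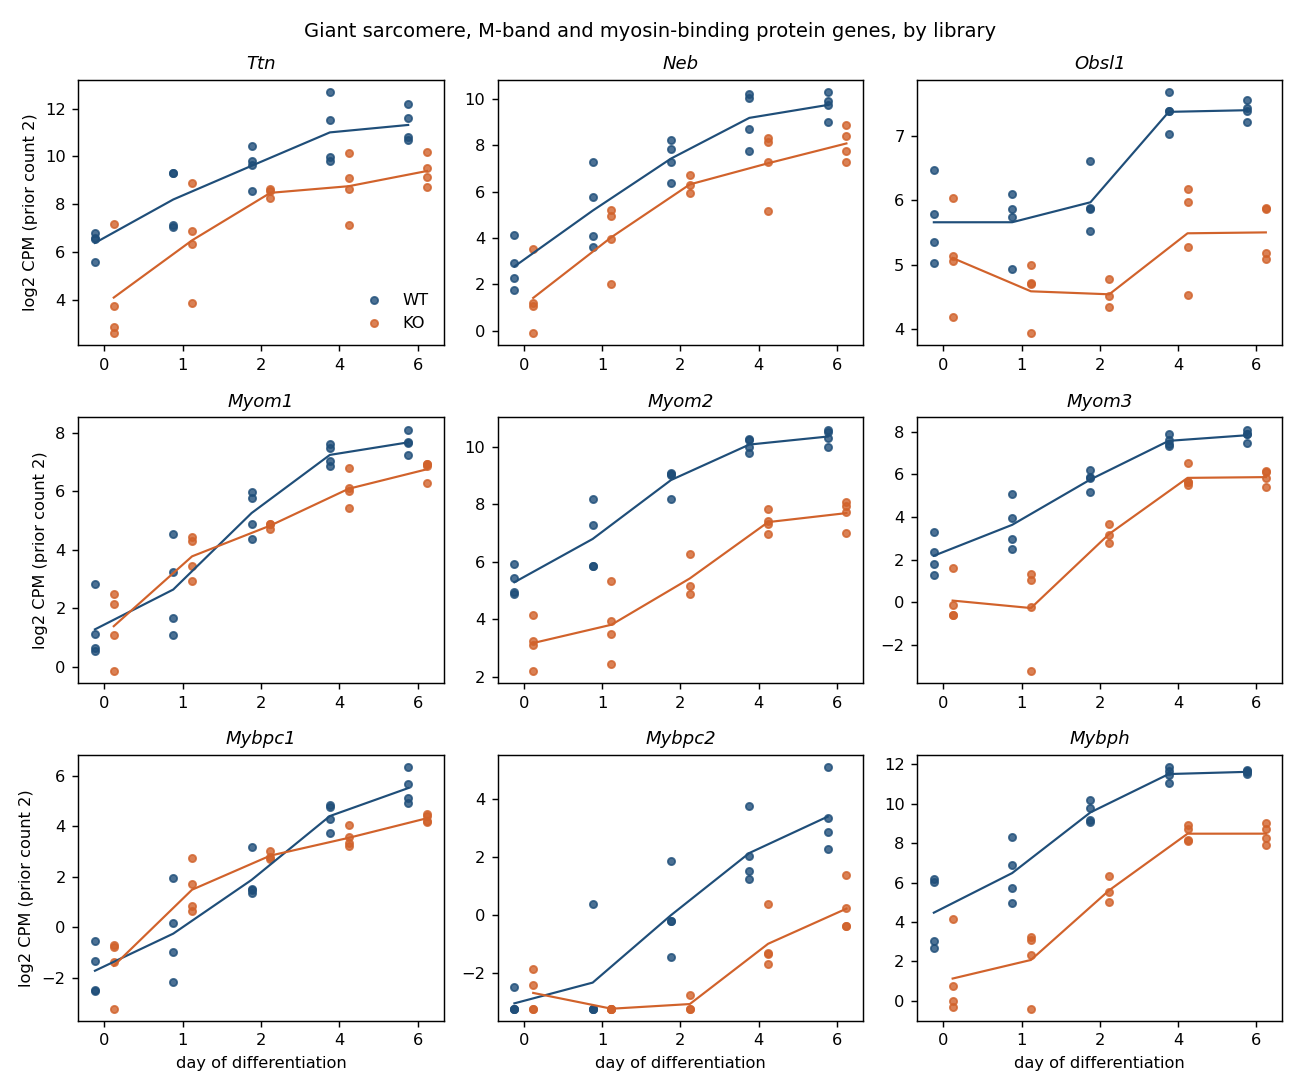
Each panel plots 1 gene as log2 CPM (prior count 2, y axis, with its own range in each panel) against the day of differentiation (x axis, days evenly spaced), with a point for each library and a line through the group means. All 9 genes are higher at day 6 than at day 0 in WT, and the KO libraries of Myom2 lie below all WT libraries of the same day on every day.

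Step by step, the calls fell between day 0 and day 4. In WT 2 members were called higher at day 1 than at day 0 (2.32% of all genes), 3 from day 1 to day 2 (1.26%) and 4 from day 2 to day 4 (4.33%). In KO these counts were 3 (4.18%), 2 (0.319%) and 1 (0.675%). That is 15 of 72 member-by-step changes over both lines, all upward, and 25 with the replicate number as a block. The share of all genes called in these steps with the block was not computed, so the 25 has no background beside it. From day 4 to day 6 edgeR called 0 members in either line, as it called 0.00% of all genes; at an unadjusted p under 0.05 there was 1 member in WT (Mybpc1) and 0 in KO, and with DESeq2 there were 0 in both. The first step in KO was called for Mybpc1 (log2 3.31, adjusted p = 0.00298), Myom1 (2.25, adjusted p = 0.0125) and Neb (2.42, adjusted p = 0.0474). The next was called for Myom3 (2.80, adjusted p = 0.00971) and Mybph (3.16, adjusted p = 0.041), and Myom3 was called again from day 2 to day 4 (2.66, adjusted p = 0.0219). Whether these steps differ between the lines was tested only through the change of the KO-WT difference from day 0, given next.

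On every day, members called between the lines were lower in KO and none was higher. The count was 3 of 9 at day 0 (9.09% of all genes tested were called lower), 4 at day 1 (9.93%), 5 at day 2 (10.3%), 6 at day 4 (14.2%) and 5 at day 6 (14.4%). Genes called higher in KO, of which the members held 0 on each day, made up 6.46%, 8.10%, 7.64%, 13.3% and 14.5% of all genes. The median log2 difference of the 9 members was -1.01, -1.44, -1.48, -1.86 and -1.96 from day 0 to day 6, while the median of all genes stayed between -0.04 and 0.02. Every KO library lay below every WT library for 1 member at day 0, 3 at day 1, 5 at day 2, 6 at day 4 and all 9 at day 6, where 14.7% of all genes did so (8.30%, 11.5%, 12.6% and 12.0% on the earlier days). At day 6 a fit to the 2 groups alone, without the spread of the other days, called all 9 lower, and 20.2% of the genes it tested.

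The KO-WT difference itself was not shown to change after day 0. At day 6 against day 0 edgeR called 0 of 9 members for genotype by day, where 9.95% of all genes were called in either direction; the unadjusted p was under 0.05 for 2 members (Obsl1 and Mybpc2), and with DESeq2 the term was called for 1, Obsl1 (-1.40, adjusted p = 0.0365). Over days 1, 2 and 4 against day 0, edgeR called 0 of 27 member-by-day terms (0.00%, 0.544% and 7.66% of all genes on those days), with 4 at an unadjusted p under 0.05 and 0 called by DESeq2. With the replicate number as a block 1 was called, Mybpc2 at day 4 (adjusted p = 0.0457), a gene with 2 and 6 counts in the groups of day 0.

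**Figure D2:**
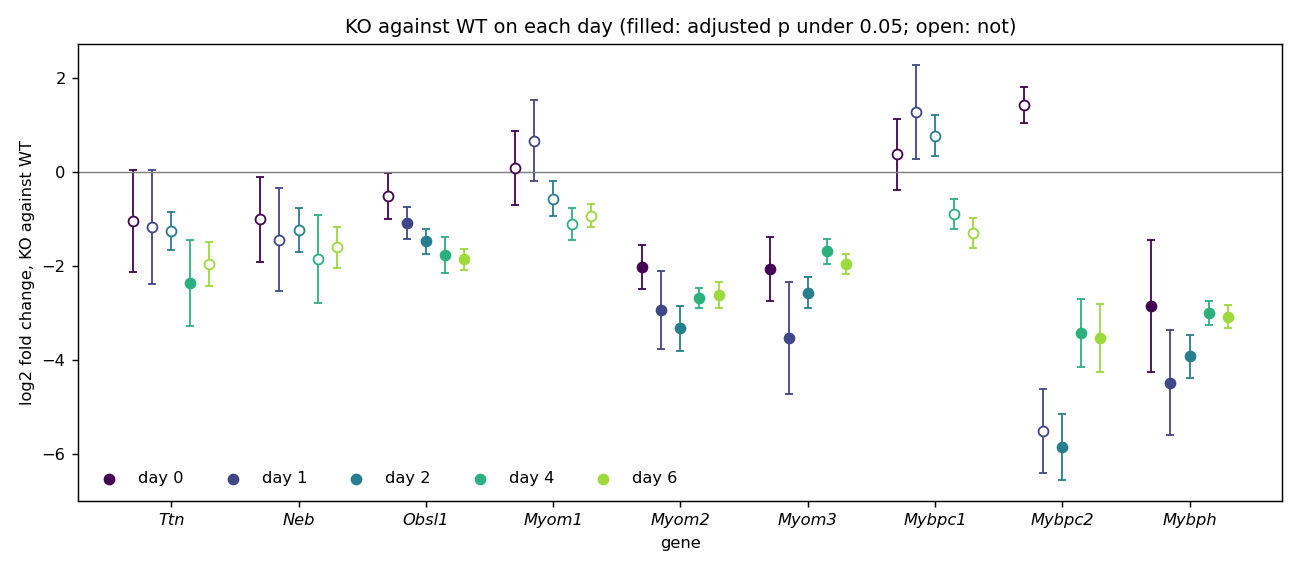
The log2 fold change of KO against WT (y axis) is plotted for each gene (x axis) and day (colour), with bars of 1 SE; filled points have an adjusted p under 0.05 and open points do not. Myom2, Myom3 and Mybph are filled on all 5 days, between -1.69 and -4.49, and Neb, Myom1 and Mybpc1 on none; the Mybpc2 points of days 0 to 2 rest on groups with few or 0 counts and their size depends on the prior count.

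Ttn, the titin gene (chr2:76703980-76982547, minus strand, 116825 exonic bases), was lower on average in KO on all 5 days and was called on day 4 alone. In growing cells its values were 117, 94.9, 43.7 and 92.6 CPM in WT replicates 1, 3, 4 and 5 and 7.44, 5.86, 141 and 14.0 CPM in KO. KO replicate 4 was thus above all WT libraries, and the other KO libraries were below all of them. The difference was -1.05 (log2, SE 1.08, adjusted p = 0.41). The SE comes from the libraries' log2 CPM and not from the model, so the difference cannot be read in units of it. Without KO replicate 4 the difference was -3.29 (adjusted p = 0.00787). A fit with the replicate number as a block within each day, chosen after seeing the data, gave -2.61 (adjusted p = 0.0139).

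At day 4 the WT libraries held 6483, 841, 1004 and 2823 CPM of Ttn and the KO libraries 1189, 138, 421 and 556 CPM. WT replicates 3 and 4 lay below KO replicate 1, so the groups overlapped, although KO was below WT at each replicate number. The difference was -2.37 (log2, SE 0.92, adjusted p = 0.0348). It was no longer called without WT replicate 1 (-1.54, adjusted p = 0.198) or 5 (0.0538), without KO replicate 3 (0.101), 4 (0.0873) or 5 (0.0708), and with no filter on low counts (0.0721). By day 6 WT held 3082, 4488, 1639 and 1669 CPM of Ttn, and KO held 1210, 733, 593 and 426 CPM. The groups no longer overlapped, with means of 2720 ± 1358 and 740 ± 337 CPM (n = 4 each), and the difference of -1.96 (SE 0.46) had an adjusted p of 0.0784. On days 1 and 2 the differences were -1.17 (SE 1.22, adjusted p = 0.362) and -1.26 (SE 0.41, adjusted p = 0.385). There too KO was below WT at each replicate number held by both lines.

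Neb, the nebulin gene (chr2:52136647-52378474, minus strand), was lower on average in KO on every day and was never called. It started from 7.82, 4.81, 2.98 and 16.6 CPM in WT and 2.27, 0.801, 11.1 and 2.05 CPM in KO at day 0. By day 6 it had reached 956, 1228, 510 and 795 CPM in WT and 498, 337, 163 and 215 CPM in KO, and the groups did not overlap. The log2 differences ran from -1.01 (SE 0.91, adjusted p = 0.384) at day 0 to -1.86 (SE 0.94, adjusted p = 0.0589) at day 4 and -1.61 (SE 0.44, adjusted p = 0.101) at day 6. Leaving out 1 library at a time gave -2.27 to -0.35 at day 0, where KO replicate 4 was the highest KO library. With the replicate number as a block the day 4 value was -1.87 (adjusted p = 0.0204); it was also called without WT replicate 3 (-2.17, 0.0336), without KO replicate 1 (-2.20, 0.0485) and with DESeq2 (-1.90, 0.0406). Neb relative to Ttn did not differ beyond the spread between libraries on any day; at day 6 the log2 ratio was -1.58 ± 0.35 in WT and -1.31 ± 0.39 in KO (exact permutation p = 0.4, adjusted 0.545).

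The spread of the members was set beside that of other long transcripts. For the 363 genes outside the members with at least 15000 exonic bases, the median deviation of each library from its group mean was taken. Ttn lay on the same side of its group mean as these long genes in 31 of 39 libraries, and so did Neb; Mybpc1 did in 29, Myom2 in 27, Myom1 in 26, Myom3 in 24, Mybpc2 in 20, Mybph in 17 and Obsl1 in 16. The count was thus highest in the giant genes, and that of Mybpc1, with 4527 exonic bases, was close to it. The correlation of Mybpc1 was not close: Pearson's r with the long-gene deviation was 0.806 for Ttn and 0.772 for Neb, but 0.171 for Mybpc1. It was 0.532 for Myom3, 0.475 for Myom2, 0.302 for Myom1, 0.165 for Mybpc2, -0.206 for Mybph and -0.243 for Obsl1. KO replicate 3 of day 1, where Ttn was at 13.3 CPM against 83.7 to 482 CPM in the other 3, had long genes 1.18 below the group mean on the log2 scale (a deviation of -1.18). KO replicate 4 of day 0, high in Ttn, had a long-gene deviation of 0.31. Between the lines, the median log2 difference of the long genes was -0.47, -0.18, 0.04, 0.08 and 0.16 on days 0, 1, 2, 4 and 6. The part of transcript length in the differences of Ttn and Neb was not tested.

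**Figure D3:**
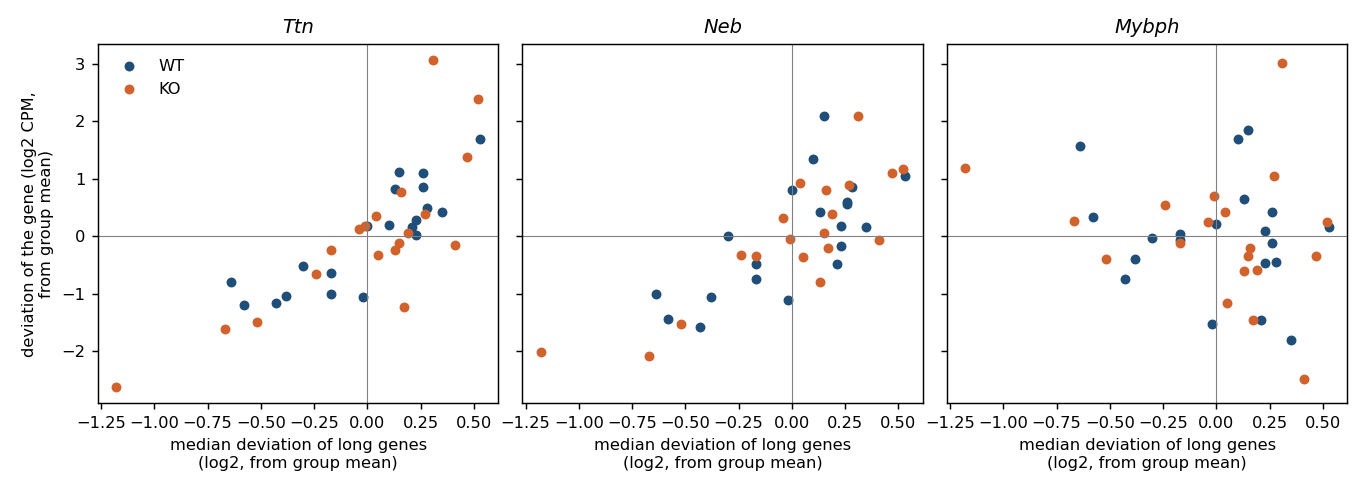
For each of 39 libraries, the deviation of a gene from its group mean (y axis, log2 CPM) is plotted against the median deviation of 363 other genes with at least 15000 exonic bases (x axis, log2), coloured by line. Ttn and Neb lie mostly in the lower left and upper right of the panel (31 of 39 libraries each), and Mybph in 17 of 39. By this count, genes not drawn lie between (Mybpc1 29, Myom2 27) or lower (Obsl1 16), though Pearson's r was 0.171 for Mybpc1 and 0.806 for Ttn.

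Among the M-band genes, Myom2 and Myom3 were lower in KO on every day, while Myom1 was called on no day. Myom2 (chr8:15057653-15133541, plus strand), the myomesin of fast fibres, held 44.6, 31.1, 26.6 and 57.9 CPM in the WT libraries of day 0 and 18.4, 8.31, 9.19 and 4.67 CPM in the KO libraries. Every KO library lay below every WT library before differentiation began, with a difference of -2.02 (log2, SE 0.47, adjusted p = 0.00292). It was widest at day 2, where WT held 534, 288, 528 and 536 CPM and KO (replicates 1, 3 and 5) 78.7, 36.6 and 29.8 CPM: -3.33 (SE 0.48, adjusted p = 4.79e-05).

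By day 6 Myom2 was at 1252, 1420, 1021 and 1445 CPM in WT and 288, 248, 134 and 211 CPM in KO (-2.62, SE 0.27, adjusted p = 7.29e-05). The KO mean at day 6, 220 ± 65.5 CPM (n = 4), lay between the WT means at day 1 (142 ± 110) and day 2 (471 ± 123; n = 4 each), and its range overlapped those of KO at day 4 and of WT at day 2 to its sides in the order of group means. Days 1 and 4 gave -2.95 (SE 0.83, adjusted p = 3.56e-05) and -2.68 (SE 0.21, adjusted p = 6.12e-05). Of the 9 members, Myom2 alone had no overlap between the lines on any day.

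Myom3 (chr4:135759715-135815564, plus strand), the myomesin of intermediate-speed fibres, averaged 1.22 ± 1.16 CPM at day 0 and 1.32 ± 1.14 at day 1 in KO (n = 4 each). Its day 1 libraries held 15.3, 5.91, 7.77 and 34.3 CPM in WT and 1.97, 0, 0.785 and 2.51 CPM in KO. All KO libraries were below all WT libraries, and the difference was -3.53 (log2, SE 1.19, adjusted p = 2.83e-05). Without the 3 libraries lowest in long transcripts, one of which is the KO library at 0, it was -3.19 (adjusted p = 0.000216). At day 0 the difference was -2.06 (SE 0.68, adjusted p = 0.00985) and lost its call without WT replicate 5, the highest WT library at 9.45 CPM (-1.55, adjusted p = 0.082). At day 6 Myom3 was at 232, 267, 178 and 223 CPM in WT and 71.8, 70.8, 44.7 and 56.8 CPM in KO (-1.96, SE 0.21, adjusted p = 0.00358), and days 2 and 4 gave -2.57 (adjusted p = 0.00189) and -1.69 (adjusted p = 0.0111).

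Myom1 (plus strand), the myomesin of all striated muscle, followed another course. Its day 1 values were 9.43, 3.22, 2.03 and 23.1 CPM in WT and 19.8, 6.79, 11.0 and 22.7 CPM in KO, so the groups overlapped widely, with the higher mean in KO (0.66, SE 0.86, adjusted p = 0.448). Without WT replicate 5, the highest of that group, KO was higher (1.58, adjusted p = 0.0493). At day 4 it was at 191, 121, 114 and 172 CPM in WT and 67.1, 68.2, 45.4 and 111 CPM in KO, and at day 6 at 273, 199, 151 and 189 CPM in WT and 129, 122, 80.3 and 116 CPM in KO. On both days all KO libraries lay below all WT libraries, by -1.11 (SE 0.33, adjusted p = 0.121; -1.15 and 0.0481 with the replicate number as a block) and -0.93 (SE 0.24, adjusted p = 0.198). Day 0 gave 0.08 (SE 0.79, adjusted p = 0.944), a value that changed sign when 1 of several libraries was left out. Myom1 shares 207 exonic bases with Myl12a on the opposite strand, a gene of 951784 counts in all, and the strand setting of the counting is not given in the sources used here, so reads from the shared stretch cannot be told apart. Myl12a went from 0.05 (log2, KO against WT) at day 0 to -0.85 (adjusted p = 0.00617) at day 6.

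Because Myom2 and Myom1 come from the same library, their ratio is free of its depth. The log2 ratio of Myom2 to Myom1 was 4.02 ± 0.77 in WT and 1.80 ± 0.71 in KO at day 0, 4.16 ± 0.47 and 0.05 ± 0.72 at day 1, and 2.68 ± 0.33 and 0.94 ± 0.18 at day 6 (n = 4 each). KO libraries lay below WT libraries on all 5 days without overlap, by -2.22 (SE 0.52), -4.12 (SE 0.43), -2.99 (SE 0.55), -1.53 (SE 0.14) and -1.74 (SE 0.19). The exact two-sided permutation p was 0.0286 on each day, the smallest that 4 against 4 (or 4 against 3) libraries allow, and 0.0659 after adjustment over the 30 ratio tests, in which 13 had that smallest p and 0 passed (2 of the 13 are Mybpc2 to Mybpc1 on days 1 and 2, with Mybpc2 at or near 0). The mean ratio was highest at day 1 in WT and at day 0 in KO. Relative to Ttn, Myom2 was without overlap lower in KO only at day 2 (-2.29, SE 0.43) and Myom3 at days 1 and 2 (-2.20, SE 0.55, and -1.43, SE 0.23), each with the same p of 0.0286 (exact permutation, adjusted 0.0659). Myom1 relative to Ttn was without overlap higher in KO at day 1 (2.84, SE 0.81, the same exact p).

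**Figure D4:**
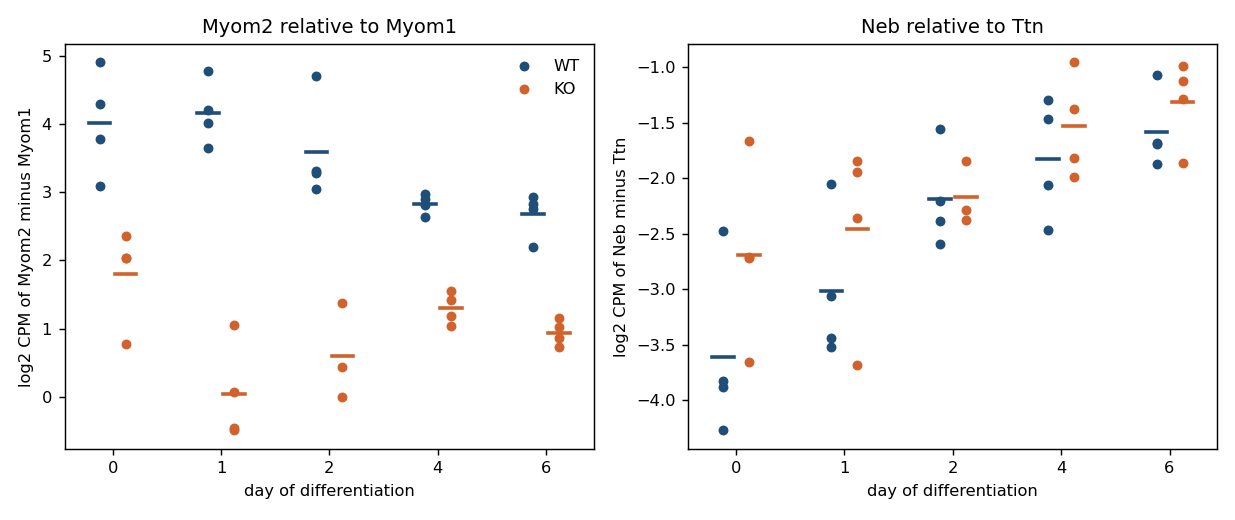
The difference of log2 CPM between Myom2 and Myom1 (left panel) and between Neb and Ttn (right panel) is plotted for each library by day (x axis), with bars for the group means. KO libraries lie below WT libraries on every day on the left, from 4.02 and 1.80 at day 0 to 2.68 and 0.94 at day 6, and the lines overlap on every day on the right.

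Obsl1 (chr1:75479310-75506452, minus strand) was called lower in KO on days 1, 2, 4 and 6. At day 0 it was at 33.6, 41.2, 79.6 and 53.3 CPM in WT and 18.7, 32.3, 64.3 and 36.0 CPM in KO, so the groups overlapped although KO was below WT at each replicate number (-0.51, SE 0.49, adjusted p = 0.312). At day 4 it held 200, 156, 164 and 126 CPM in WT and 24.3, 61.3, 40.6 and 72.4 CPM in KO, and at day 6 147, 182, 166 and 161 CPM in WT and 38.2, 58.4, 35.0 and 58.4 CPM in KO. No KO library reached a WT library on days 2, 4 and 6, and the differences were -1.48 (SE 0.26, adjusted p = 0.00532), -1.77 (SE 0.39, adjusted p = 0.000167) and -1.86 (SE 0.22, adjusted p = 9.49e-05). At day 1 the difference was -1.09 (SE 0.34, adjusted p = 0.0226), which lost its call without WT replicate 4 (0.0521), WT replicate 5 (0.0832) or KO replicate 1 (0.0762). The change of the difference from day 0 to day 6 was -1.34 (SE 0.54, adjusted p = 0.0678); it was called without WT day 0 replicate 4 (-1.71, adjusted p = 0.0167) or KO day 0 replicate 1 (-1.57, 0.0258).

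Mybph (chr1:134193448-134201232, plus strand), the member with the most reads per exonic length at day 6, was lower in KO on every day. At day 0 it was at 6.48, 8.11, 59.2 and 69.0 CPM in WT and 0.708, 1.5, 17.4 and 0.902 CPM in KO. WT fell into a lower and a higher pair of libraries, and KO replicate 4, the library also high in Ttn, lay above the lower pair. Among KO libraries of day 0, replicate 4 was the highest for every member except Myom2. The difference was -2.86 (log2, SE 1.40, adjusted p = 0.0131), and its call was lost when WT replicate 5 (-2.38, 0.0621) or KO replicate 3 (-2.56, 0.0513) was left out. Without KO replicate 4 it was -5.21 (adjusted p = 7.34e-05).

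From day 1 on no KO library reached a WT library of Mybph. Values were 120, 56.1, 31.1 and 322 CPM in WT and 4.98, 8.64, 0.673 and 8.92 CPM in KO at day 1 (-4.49, SE 1.12, adjusted p = 0.000274). At day 6 they were 3341, 2823, 3238 and 2888 CPM in WT and 329, 426, 246 and 523 CPM in KO (-3.08, SE 0.25, adjusted p = 0.00355). Days 2 and 4 gave -3.93 (SE 0.46, adjusted p = 0.00285) and -3.01 (SE 0.26, adjusted p = 0.00426). The KO mean at day 6 (381 ± 120 CPM) stood at 12.4% of the WT mean and below every WT library of day 2, the lowest of which held 533 CPM. Mybph shares 1162 exonic bases with Adora1 on the opposite strand, which had 481 counts in all libraries together.

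Mybpc1 (chr10:88518279-88605152, minus strand) resembled Myom1 in its order of values. At day 1 it was at 1.03, 0.422, 0.119 and 3.75 CPM in WT and 1.48, 2.93, 1.74 and 7.00 CPM in KO. The groups overlapped through WT replicate 5; the difference was 1.28 (log2, SE 1.00, adjusted p = 0.152), 2.54 (adjusted p = 0.00661) without that library and 1.56 (adjusted p = 0.0129) with a replicate block within each day. Day 2 gave 0.77 (SE 0.44, adjusted p = 0.443). At day 6 the order was the other way round: 50.3, 78.4, 30.2 and 32.7 CPM in WT and 23.4, 18.6, 22.0 and 18.0 CPM in KO, without overlap and not called (-1.30, SE 0.32, adjusted p = 0.0813).

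Mybpc2 (chr7:44501699-44524656, minus strand) was the member with the fewest reads. At day 0 it had 2 counts in the WT libraries together and 6 in the KO libraries. At day 1 only WT replicate 5 held reads (1.19 CPM), and the KO libraries held 0 counts, which allows up to 0.0409 CPM (3 counts over the group, counting error only); the fit gave an adjusted p of 0.0528, and 0.0235 with the replicate number as a block. At day 2 WT was at 0.256, 0.753, 0.741 and 3.55 CPM and KO at 0.0435, 0 and 0 CPM, a single count (adjusted p = 0.0103, lost without KO replicate 3, at 0.0575, or 5, at 0.0506).

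At day 4 Mybpc2 was at 3.86, 2.09, 2.69 and 13.0 CPM in WT and 0.312, 0.202, 0.300 and 1.2 CPM in KO (-3.43, SE 0.73, adjusted p = 0.00897). At day 6 it was at 6.96, 9.60, 4.75 and 31.3 CPM in WT and 2.63, 1.09, 0.689 and 0.653 CPM in KO (-3.54, SE 0.73, adjusted p = 0.00629). The groups did not overlap on either day, and WT replicate 5 was the highest of its group on both. Without that library the calls were lost, at -2.53 (adjusted p = 0.0651) at day 4 and -2.62 (0.0523) at day 6. Relative to Mybpc1, Mybpc2 was lower in KO without overlap on days 4 and 6 (on earlier days too many libraries held 0 counts of Mybpc2 for the ratio to be read); at day 6 the log2 ratio was -2.14 ± 1.39 in WT and -4.11 ± 0.76 in KO (exact permutation p = 0.0286, adjusted 0.0659).

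Levels of different genes are compared per kilobase of exon. In WT at day 6, Mybph stood highest at 1319 ± 110 CPM per kb, followed by Myom2 at 145 ± 22.1, Myom3 at 37.3 ± 6.07, Neb at 32.8 ± 11.3, Ttn at 23.3 ± 11.6, Myom1 at 19.4 ± 4.89, Obsl1 at 19.4 ± 1.73, Mybpc1 at 10.6 ± 4.91 and Mybpc2 at 3.64 ± 3.40 (SD, n = 4). In KO Mybph (164 ± 51.5) and Myom2 (24.9 ± 7.39) again led. Neb (11.4 ± 5.60), Myom1 (10.7 ± 2.08) and Myom3 (10.1 ± 2.13) came next and were within their spread of each other, then Ttn (6.34 ± 2.88), Obsl1 (5.61 ± 1.49), Mybpc1 (4.53 ± 0.574) and Mybpc2 (0.351 ± 0.258). Myom3 was above Myom1 in mean level in WT and not in KO. The levels per kb of Ttn and Neb carry the spread between libraries described above.

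**Figure D5:**
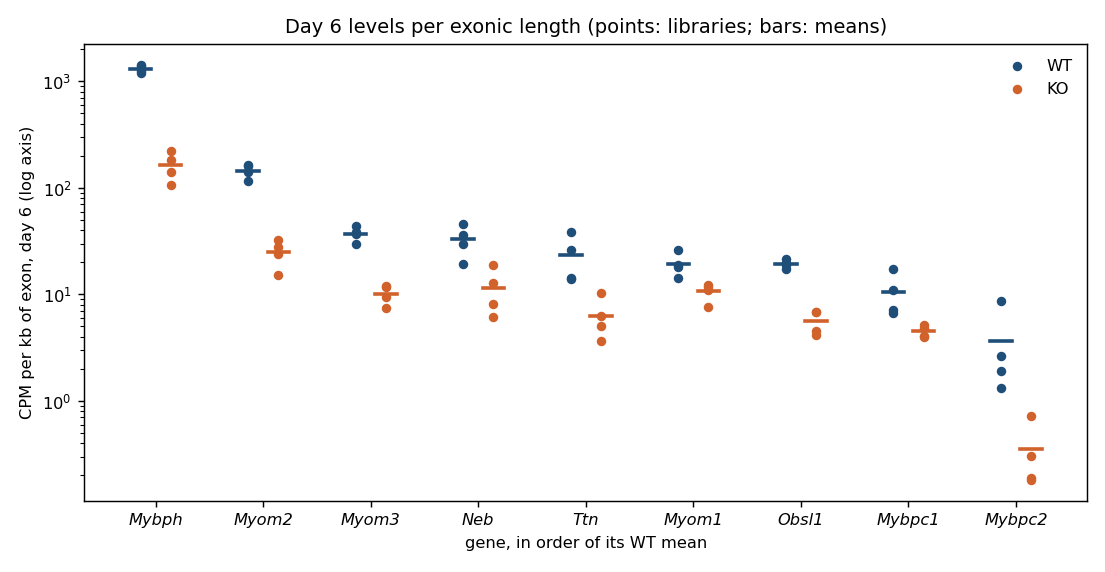
CPM per kb of exon at day 6 (log y axis) is plotted for each gene (x axis, in order of the WT mean), with a point for each library and a bar for the group mean. Mybph leads in both lines, at 1319 in WT and 164 in KO, and in every gene all KO points lie below all WT points.

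The partners of these proteins were counted from 4 lists. Of 15 titin partners tested, 8 were lower in KO at day 6 and 3 higher, with a median log2 difference of -1.02 against 0.02 over all genes, of which 14.4% were called lower and 14.5% higher; these shares are the background for each list. Actn2, the sarcomeric alpha-actinin that anchors titin at the Z-disc, averaged 130 ± 25.1 CPM with WT and 1.22 ± 0.548 with KO at day 6 (-6.86, SE 0.43, adjusted p = 4.7e-07). Ankrd1 and Ankrd2, the ankyrin-repeat proteins of the titin spring, were lower too (-2.22, SE 0.14, adjusted p = 1.81e-08, and -4.14, SE 0.40, adjusted p = 2.46e-05). In growing cells Ankrd1 averaged 793 ± 253 CPM for WT and 314 ± 44.4 for KO (n = 4 each; -1.36, adjusted p = 9.81e-05).

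Of 13 nebulin partners and thin-filament length genes, 4 were lower at day 6 and 0 higher (median -1.05). They include Klhl41, which stabilises nebulin, at 691 ± 211 against 200 ± 69.8 CPM (-1.87, SE 0.36, adjusted p = 0.00566), Lmod3, a thin-filament leiomodin (-1.93, SE 0.34, adjusted p = 0.00171), and Nrap, a nebulin-related anchoring protein (-1.59, SE 0.22, adjusted p = 0.00116). Nrap did not differ at day 0 beyond the spread between libraries (0.17, SE 0.39, adjusted p = 0.793).

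Of 10 sarcomere assembly genes, 5 were lower at day 6 and 0 higher (median -1.28). Xirp2, an actin-binding Xin-repeat protein, averaged 33.3 ± 18.4 CPM for WT and 0.114 ± 0.142 for KO at day 6 (-8.38, SE 0.65, adjusted p = 3.24e-07), and at 9.41 ± 3.08 and 0.36 ± 0.50 at day 0 (n = 4 each). Xirp1, its paralogue, and Cryab, a small heat shock protein of the Z-disc, were lower by -2.63 (SE 0.16, adjusted p = 1.25e-05) and -1.84 (SE 0.16, adjusted p = 2.8e-06).

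Of 12 genes of the thick filament core, 7 were lower and 1 higher at day 6 (median -2.13). Myl2, the slow regulatory light chain, averaged 169 ± 134 CPM for WT and 3.38 ± 1.60 for KO (-5.68, SE 0.71, adjusted p = 3.49e-06), and Myl4, an embryonic essential light chain, at 3905 ± 520 and 372 ± 149 (-3.46, SE 0.34, adjusted p = 0.000339). The gene that was higher was Mylk2, the skeletal myosin light chain kinase, with 25.5 ± 9.38 CPM for WT and 97.0 ± 31.5 for KO (1.85, SE 0.41, adjusted p = 0.000361). Myog, a transcription factor of myoblast differentiation, averaged 25.3 ± 18.4 CPM for WT and 5.87 ± 4.92 for KO at day 0 (-2.16, SE 1.04, adjusted p = 0.00886) and 1167 ± 342 against 467 ± 187 at day 6 (-1.38, SE 0.37, adjusted p = 0.0588). Myod1, the myogenic determination factor, averaged 109 ± 13.8 CPM for WT and 228 ± 21.3 for KO at day 6 (0.98, SE 0.13, adjusted p = 0.000785; n = 4 each).

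The genes whose group means ran most like those of each member, by Pearson's r of mean log2 CPM over the 10 groups, are given here as a description. For Myom2 they were Alpk3 (r = 0.996), a muscle alpha-kinase, and Tnni1 (0.994), the slow troponin I. For Myom3 they were Cacna1s (0.997), the calcium channel of the triad, and Myh3 (0.995), embryonic myosin heavy chain. Mybph ran with Mymk (0.997), the fusogen myomaker, and Tnni1 (0.995), and Neb with Hrc (0.997), the calcium-binding protein of the sarcoplasmic reticulum, and Rab5b (0.995). For Obsl1 they were Rbm38 (0.994) and Arhgef37 (0.991). Ttn ran with Golga4 (0.989) and 9330102E08Rik (0.988), Myom1 with Gpr155 (0.995) and Gm14325 (0.990), Mybpc1 with Ttc33 (0.994) and Gm14325 (0.993), and Mybpc2 with Bbip1 (0.998) and Ddrgk1 (0.990). The Golga4 mean rose from 65.1 to 161 CPM between day 0 and day 6 in WT, and that of Ttn from 87.1 to 2720 CPM, since r is blind to size. The 10 means of both genes come from the same libraries.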

How the data were processed

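The deposited table holds raw read counts per gene for C2C12 cells. Per the submitters' processing notes, reads were checked with FastQC 0.11.9, aligned with STAR 2.7.9 and counted with featureCounts 2.0.3; GRCm38 and GRCh38 are named as builds, the second without a role, and DESeq2 without a version. Libraries were made with a stranded kit and read at 51 bp, per the labels' protocols; the strand setting of the counting is not given in the sources used here. Symbols, positions and exonic lengths came from GENCODE mouse release 21 (GRCm38), in which all 29980 identifiers were found. Of 560803 values above 0, 64.4% were even; the reason was not tested. The table has 1 column of no listed sample, which was not used.

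The model was edgeR 4.0.16 in R 4.3.3, with limma 3.58.1 installed: 1 mean for each of 10 groups taken from the titles, TMM normalization, filterByExpr by group, robust quasi-likelihood dispersions, 29 residual degrees of freedom and no replicate block. Of all genes, 13780 were tested and 10001 had no read. Calls needed a p under 0.05 after Benjamini-Hochberg adjustment over every tested gene. Fold changes come from that model. For an SE, each group's variance in log2 CPM (prior count 2) was divided by its n, and the square root of the sum taken. It belongs to a difference of mean log2 CPM, not to the fold change beside it, and the tests do not use it. Ratios also use log2 CPM and need not match the fold changes. At day 1 the ratio of Neb to Ttn differed by 0.56, with fold changes of -1.44 and -1.17. CPM is counts over the library total. Ratios of members were compared by exact two-sided permutation. The fitting script was run on simulated counts with known changes.

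All 9 members are named. Of each partner list up to 3 genes with the smallest p for KO against WT at day 6 are named, and for each member the 2 genes outside the members with the highest correlation; Flnc, Myod1 and Myog are context, and Myl12a and Adora1 were named after their overlap was seen. Members and lists were chosen with earlier results of these data known. Replicate numbers come from the titles. Deviations of same-numbered libraries from their group means correlated over 0.1 for every pair at days 0, 1, 2 and 4 (0.126 to 0.571) and not at day 6 (-0.0172 to 0.185). Alternatives were DESeq2 1.42.0, its size factors, no filter, a replicate block, a test against 1.5-fold, a fit to the groups of a contrast alone, each library left out in turn and, chosen after seeing the data, a block within each day, halved counts, the fit without WT day 0 replicate 4 and KO day 1 replicate 3, and the fit without these and KO day 4 replicate 3.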

Additional observations from a re-analysis of the deposited data

Results flagged for a closer look

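In 6 of the 80 member-by-group sets of 4 libraries, 1 library lay far from the other 3 on the log2 scale (Dixon's test at the 95% level); chance alone gives about 1 in 20 such sets. Myom1 was low in KO day 6 replicate 4, at 80.3 CPM, and Myom2 was low in WT day 2 replicate 3, at 288 CPM. Myom3 was high in KO day 4 replicate 5, at 94.2 CPM. In WT replicate 5 the myosin-binding proteins C were flagged as high: Mybpc1 at day 2, at 9.09 CPM, and Mybpc2 at days 0 and 1. Mybpc2 held 0.0692 CPM (2 counts) at day 0 and 1.19 CPM at day 1, and the other 3 libraries had 0. With 3 libraries tied at 0 any read in the last one is flagged, so these 2 sets say nothing about spread. At day 1 WT replicate 5 was the highest WT library of every member, among them Ttn (644 CPM) and Mybph (322 CPM). At day 0 it was the highest for every member except Ttn and Obsl1. WT replicate 5 was also the highest WT library of Mybpc2 on days 4 and 6, at 13.0 and 31.3 CPM.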

How the results depend on the processing

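With no paired fit, 5 members were called lower at day 6; 8 were with the replicate block (16.8% of all genes), 8 with a block within each day (19.0%) and 9 in a fit to the 2 groups alone (20.2%). For genotype by day at day 6 the count was 0, and 1 with the replicate block, with DESeq2 and without WT day 0 replicate 4 and KO day 1 replicate 3, with or without KO day 4 replicate 3 (Obsl1 each time); over days 1, 2 and 4 it was 0, and 1 with the block (Mybpc2) and without those 2 or 3 libraries (Obsl1 at day 4). Of the 72 steps between neighbouring days, 15 were called, against 25 with the block, 3 against a fold of 1.5 and 9 in fits to the groups alone. For steps, the shares of all genes called in these other fits were not computed. Leaving out each library in turn gave 1 to 4 members at day 0 (1 without WT replicate 5), 3 to 5 at day 1, 4 to 5 at day 2, 4 to 7 at day 4, 4 to 5 at day 6 and 10 to 18 steps; genotype by day gave 0 to 1 at day 6 and 0 to 1 over the earlier days. The 9 and 8 members called higher at day 6 than at day 0 in WT and KO held under every alternative run, and 0 of 30 ratio tests passed with a prior count of 0.5 too. The numbers pair libraries at days 0 to 4; blocked values that change a call there stand beside the results, and at day 6, where they do not, the block added Ttn (-2.16, adjusted p = 0.029), Neb (-1.70, 0.0339) and Mybpc1 (-1.31, 0.0301).

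Signs changed only for uncalled values. Myom1 at day 0 was 0.08, -0.06 and -0.03 without those 2 and 3 libraries and -0.31 to 0.96 leaving out 1 library; Mybpc2 at day 1 ran from -5.95 to 0.0. For genotype by day at day 6, Myom3 (0.10) was -0.03 with the block and -0.44 to 1.04 leaving out 1 library, Mybph ran from -0.72 to 2.13, Neb from -1.28 to 0.67 and Ttn from -1.30 to 1.33, the upper end of the last 3 without KO day 0 replicate 4. Of the ratios, leaving out 1 library gave -0.15 to 0.22 for Neb to Ttn at day 2, -0.57 to 1.17 and -0.96 to 0.0 for Myom2 to Ttn at days 0 and 4, -0.26 to 0.68 and -0.25 to 0.15 for Myom3 to Ttn at days 0 and 6, and -0.22 to 0.39 for Mybpc2 to Mybpc1 at day 0. The cause of these changes was not tested. Depth limits Mybpc2 before day 4, where groups hold 0 to 106 counts.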
